A study of Mus musculus with 6 samples.

Results

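The genes described here are the transcripts that beta-catenin signalling maintains in the hepatocytes around the central vein of the mouse liver lobule. They were chosen by symbol: Glul, Oat, Slc1a2, Rhbg, Axin2, Tbx3, Rnf43, Znrf3 and Lgr5, represented by all 21 probe sets whose annotation carries exactly one of these 9 symbols, out of 45101 on the array. Livers of SRC-2 null female mice (3 arrays) were compared with livers of wild-type female mice (3 arrays). All 6 samples share a C57 genetic background, ovariectomy at 6 weeks of age and killing under Avertin anesthesia 2 weeks later. SRC-2, the product of Ncoa2, is a nuclear receptor coactivator, and the labels name the mutation only as SRC-2-/-, without describing the allele or saying that it is limited to the liver. The comparison addresses which liver transcripts change when SRC-2 is missing.

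In the liver lobule, blood flows from the portal tract to the central vein, and hepatocytes along the way divide their tasks. Endothelial cells of the central vein secrete Wnt ligands and R-spondin, which stabilise beta-catenin in the neighbouring hepatocytes. The innermost of these cells express glutamine synthetase and capture the ammonia that the urea cycle of upstream, periportal cells has left. The tissue matched its label: Alb, the albumin gene, read 14.4 ± 0.05 in SRC-2 null and 14.4 ± 0.02 in wild-type liver on the log2 scale (SD, n = 3 each), and 0 of 7 hepatocyte markers were called in limma (0 at an unadjusted p under 0.05). Ncoa2 read 5.60, 5.44 and 5.86 on the null arrays, against 7.74, 7.92 and 8.53 on the wild-type arrays. This was a 5.41-fold fall (limma adjusted p = 0.000353, log2 fold change -2.44). A second Ncoa2 probe set was also called and the remaining 2 of its 4 were not; which of them lie in the altered part of the gene is not known from the labels. Replicate 3 of both genotypes stood apart from replicates 1 and 2 across all genes.

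Of the 21 probe sets, 13 had a mean over the 6 arrays at or above 4.21 on the log2 scale, the median of all probe sets, and 8 lay below it. Every one of the 9 genes was represented by at least 1 probe set above this limit and entered the test of 11894 genes through its brightest one. Values are log2 expression from robust multi-array average (RMA), so a difference of 1 is a doubling, and folds near the low end of the scale are compressed. A gene was called at a limma adjusted p under 0.05. With no limit on level, where 2.74% of 18193 genes were called, Rhbg and Glul were also the members called. In SRC-2 null liver 2 of the 9 genes fell, Rhbg and Glul, none rose and 7 did not pass. Over all tested genes 4.67% were called in either direction, 3.13% downward and 1.55% upward. The median log2 fold change of the 9 genes was -0.33, beside 0.00 for all tested genes.

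**Figure D1:**
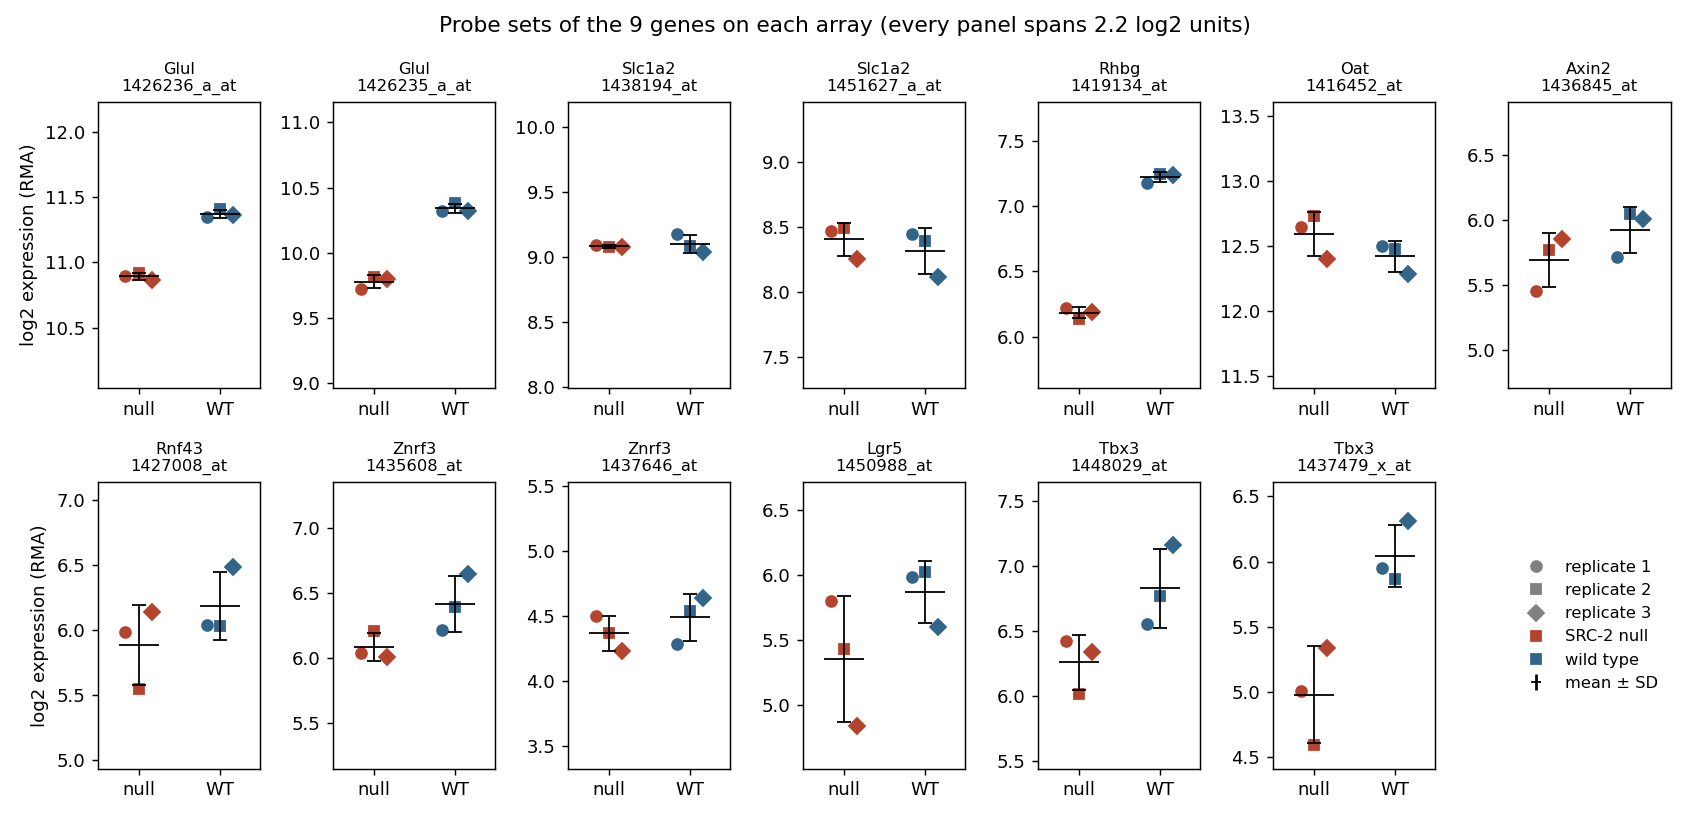
Log2 expression (RMA) of the 13 probe sets of the 9 genes that lay above the limit, 1 panel per probe set, with SRC-2 null arrays on the left (red) and wild-type arrays on the right (blue). Each symbol is 1 array, shaped by replicate number, and bars are mean ± SD (n = 3). The groups do not overlap for Rhbg, both Glul and both Tbx3 probe sets and, narrowly, 1435608_at of Znrf3. They overlap for the remaining probe sets, among them both of Slc1a2 and that of Oat.

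Glul encodes glutamine synthetase, which joins ammonia to glutamate. Its brighter probe set, 1426236_a_at, read 10.89, 10.92 and 10.87 on the null arrays, against 11.35, 11.41 and 11.36 on the wild-type arrays. All 3 null values lay below all 3 wild-type values, and the gap was many times the spread within either genotype. The means were 10.89 ± 0.02 in null and 11.37 ± 0.03 in wild-type liver (SD, n = 3 each), a 1.40-fold fall (limma adjusted p = 0.00964, log2 fold change -0.48, SE 0.08). The second probe set, 1426235_a_at, read 9.72, 9.81 and 9.80 in null liver and 10.32, 10.38 and 10.32 in wild-type liver. It gave the same picture, with a log2 fold change of -0.56 and a limma adjusted p of 0.013 among the 19623 probe sets with 1 symbol above the limit, of which 2.41% were called. The Glul call by gene depended on the arrays used: the adjusted p was 0.062 without wild-type replicate 2 and 0.0551 with replicates 1 and 2 alone, while the log2 fold change stayed between -0.46 and -0.49 in each leave-one-out fit. In whole liver, fewer glutamine synthetase-positive cells and less Glul RNA per cell cannot be told apart, and the same holds for every gene below.

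Rhbg, an ammonium transporter of the Rhesus glycoprotein family, had the largest fall of the 9 genes when each is taken by its brightest probe set. It read 6.22, 6.14 and 6.19 in null liver, against 7.18, 7.24 and 7.24 in wild-type liver. The null arrays lay about 1 log2 unit below the wild-type arrays, with no overlap. The means were 6.18 ± 0.04 and 7.22 ± 0.04 (null and wild type, SD, n = 3 each), a 2.06-fold fall (limma adjusted p = 0.000201, log2 fold change -1.04, SE 0.08). This call held in each of the 16 alternative fits.

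Slc1a2, a high-affinity glutamate transporter that in liver lies in the glutamine synthetase-positive cells, did not pass. Its brightest probe set, 1438194_at, read 9.09, 9.08 and 9.07 in null liver and 9.17, 9.08 and 9.04 in wild-type liver. These ranges overlapped. The log2 fold change was -0.02 with a 95% interval from -0.20 to 0.16 (limma adjusted p = 0.943), so the interval left out the log2 fold change of Glul, -0.48, although the difference between the genes was not itself tested. Its direction turned under quantile normalization and without wild-type replicate 1. The second probe set above the limit, 1451627_a_at, had 8.47, 8.49 and 8.25 in null liver, against 8.44, 8.39 and 8.11 in wild-type liver, and a log2 fold change of 0.09. The remaining 3 Slc1a2 probe sets were dim, with log2 fold changes of -0.32, -0.25 and -0.02, and 0 of the 5 passed in limma (0 at an unadjusted p under 0.05).

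Oat, ornithine aminotransferase, which converts ornithine towards glutamate, was the member with a log2 fold change above 0. It read 12.65, 12.73 and 12.40 in null liver and 12.50, 12.48 and 12.28 in wild-type liver. The null value was the higher one in each of the 3 pairs of arrays with the same replicate number, but the groups overlapped. The log2 fold change was 0.17 (95% interval -0.08 to 0.43, limma adjusted p = 0.51), and it ranged from 0.10 without wild-type replicate 3 or null replicate 2 to 0.27 without null replicate 3. Among the 4 genes of nitrogen handling, then, Glul and Rhbg fell, and Slc1a2 and Oat did not pass.

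The RefSeq sequences upstream of Glul, which fell, and Slc1a2, which did not pass and whose difference from Glul was not tested, are shown because both are known from the same layer of hepatocytes. Each line gives the 250 bases before an annotated transcription start in GRCm38.p6, 5′ to 3′. Glul lies on the plus strand at chr1:153899679-153899928 and Slc1a2 on the plus strand at chr2:102706188-102706437. Capitals mark AGGTCA, the core of many nuclear receptor elements, in Glul, and CTTTGAT, a TCF/LEF element, read on the opposite strand in Slc1a2.
Glul: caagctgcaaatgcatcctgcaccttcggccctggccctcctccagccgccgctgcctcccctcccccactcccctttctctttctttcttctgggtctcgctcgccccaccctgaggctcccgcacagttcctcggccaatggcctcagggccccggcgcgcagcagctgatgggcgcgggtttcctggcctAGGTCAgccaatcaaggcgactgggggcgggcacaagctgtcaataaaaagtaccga
Slc1a2: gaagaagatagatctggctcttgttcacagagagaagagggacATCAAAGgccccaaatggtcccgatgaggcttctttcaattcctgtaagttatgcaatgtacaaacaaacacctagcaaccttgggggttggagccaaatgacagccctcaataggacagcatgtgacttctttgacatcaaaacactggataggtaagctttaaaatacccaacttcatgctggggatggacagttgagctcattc
Both strands were searched for 4 motifs: the TCF/LEF forms CTTTGAT and CTTTGAA, the nuclear receptor core AGGTCA and the E-box CACGTG. The printed windows hold no overlapping matches. Of the 9 genes, 5 had a RefSeq window (Axin2, Glul, Oat, Rnf43 and Slc1a2), with 6 windows in all. CTTTGAT occurred in 1 of the 6 (Slc1a2) and in 3.21% of all 32851 windows, and AGGTCA in 1 of the 6 (Glul) and in 14.0% of all windows. CTTTGAA and CACGTG occurred in 0 of the 6, and in 4.46% and 6.02% of all windows. The matches describe letters in these windows only.

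Axin2, Rnf43, Znrf3 and Lgr5 are direct outputs of Wnt signalling that also regulate it. Axin2 is a scaffold of the complex that degrades beta-catenin. Its probe set 1436845_at read 5.45, 5.77 and 5.85 in null liver and 5.72, 6.04 and 6.00 in wild-type liver. The groups overlapped, although the null array was lower in each same-numbered pair. The log2 fold change was -0.23 (95% interval -0.54 to 0.07, limma adjusted p = 0.436), or -0.11 without null replicate 1, and the second probe set was dim, with a log2 fold change of -0.07.

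Rnf43 and Znrf3 are related membrane ubiquitin ligases that remove Frizzled receptors from the cell surface. Rnf43 read 5.98, 5.54 and 6.14 in null liver, against 6.04, 6.03 and 6.49 in wild-type liver, with a log2 fold change of -0.30 (95% interval -0.71 to 0.11, limma adjusted p = 0.461) that was -0.13 without null replicate 2 and -0.15 without wild-type replicate 3. Znrf3, by its brighter probe set 1435608_at, read 6.04, 6.20 and 6.00 in null liver, against 6.22, 6.39 and 6.65 in wild-type liver. Rnf43 overlapped between genotypes, while every Znrf3 value in null liver lay below the lowest wild-type value. For null replicate 2 the gap was slight (6.20 against 6.22). Znrf3 had a log2 fold change of -0.33 (95% interval -0.61 to -0.06) and did not pass after adjustment (limma adjusted p = 0.205). Its log2 fold change was -0.22 without wild-type replicate 3 and -0.18 with replicates 1 and 2 alone. The second Znrf3 probe set had a log2 fold change of -0.12, and its groups overlapped.

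Lgr5, a receptor for R-spondins, had the widest spread in null liver of the 9 brightest probe sets. It read 5.80, 5.43 and 4.84 there, against 5.98, 6.02 and 5.60 in wild-type liver. Null replicate 1 lay within the wild-type range, and null replicate 3 lay far below it. The log2 fold change was -0.51 with a 95% interval from -1.04 to 0.01 (limma adjusted p = 0.307), and without null replicate 3 it was -0.25, and with the mean of both probe sets -0.24. The other Lgr5 probe set was dim, with a log2 fold change of 0.04.

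Tbx3 encodes a T-box transcription factor that acts mostly as a repressor. Its probe sets disagreed in size. The brightest, 1448029_at, read 6.42, 6.02 and 6.34 in null liver, against 6.55, 6.77 and 7.16 in wild-type liver, with a log2 fold change of -0.57 (95% interval -0.95 to -0.18, limma adjusted p = 0.118). The other one above the limit, 1437479_x_at, read 5.004, 4.59 and 5.34 in null liver, against 5.95, 5.87 and 6.31 in wild-type liver. On both, the highest null value lay below the lowest wild-type value. The second fell 2.09-fold (log2 fold change -1.06, limma adjusted p = 0.0417 among the 19623 probe sets), but its suffix marks a set that can also detect other transcripts. The 3 dim Tbx3 probe sets had log2 fold changes from -0.12 to 0.16 and did not pass, and the mean of all 5 gave -0.30 (limma adjusted p = 0.179).

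**Figure D2:**
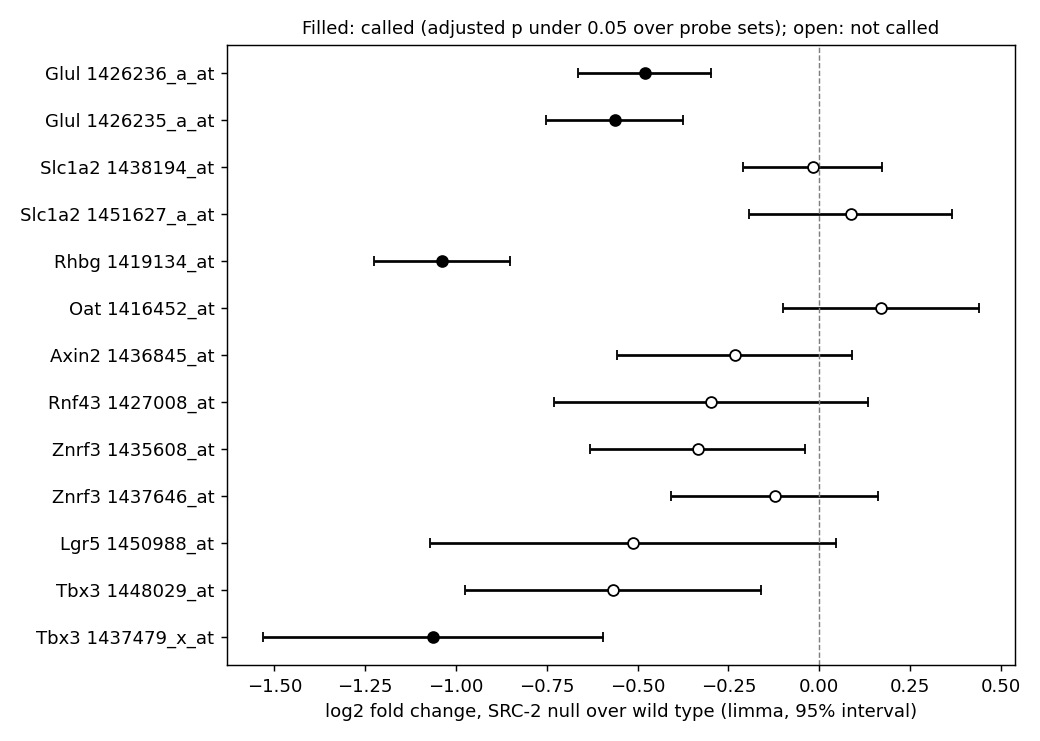
Log2 fold change of SRC-2 null over wild type with its 95% interval (limma, n = 3 each) for the 13 probe sets above the limit, fitted across 19623 probe sets. Filled circles were called at an adjusted p under 0.05: both Glul sets, Rhbg and 1437479_x_at of Tbx3. Open circles did not pass.

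Of the 9 genes, 8 had log2 fold changes below 0. By brightest probe set, the groups did not overlap for 4 of the 9 (Glul, Rhbg, Tbx3 and Znrf3), all lower in null. Over all tested genes 12.5% were lower in null without overlap and 23.4% did not overlap in either direction. In 7 of the 9, all but Oat and Slc1a2, the null array was the lower one in each of the 3 same-numbered pairs, as were 23.4% of all tested genes. In limma 4 of them had an unadjusted p under 0.05, as did 17.2% of all tested genes. Macrophage markers fell in the same null livers: 16 of 17 were called lower and none higher, with a list mean of 6.81 to 6.88 in null liver, against 7.85 to 7.96 in wild-type liver. The macrophage markers with the smallest p were Marco, a scavenger receptor (5.10-fold lower), Ctss, Cd5l and Timd4. Hepatocyte markers had a list mean of 13.26 to 13.34 in null liver and 13.31 to 13.36 in wild-type liver. The part of cell composition in the values of the 9 genes was not tested. The tested genes with the highest Pearson correlation to Glul over the 6 arrays were Akr1c6 (0.999), a hydroxysteroid dehydrogenase, Cyp17a1 (0.998), a steroid hydroxylase, and 9030619P08Rik (0.998). The 6 arrays share 2 genotypes, and 295 genes had a correlation of at least 0.95, so the order among them is of little weight. The fall was -0.43 on the log2 scale for Akr1c6, -1.23 for Cyp17a1 and -2.77 for 9030619P08Rik. Akr1c6 was no longer called without any single array but wild-type replicate 3, nor with replicates 1 and 2 alone (limma adjusted p 0.053 to 0.0935).

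Other genes that are higher around the central vein fell in part, and none was called higher in the main fit. Of 30 listed, 26 were measured, 9 fell and 17 did not pass. Of the 17, 2 had log2 fold changes above 0 with an unadjusted p under 0.05 in limma. They were Cyb5a, a cytochrome, at 0.20 and Car2, a carbonic anhydrase, at 0.30. The others of the 17 with such a p were lower: Rgn (-0.35), Cldn2 (-0.29), Ahr (-0.27), Lhpp (-0.24) and Gstm1 (-0.20). Over the list 16 of 26 had an unadjusted p under 0.05 in limma, beside 17.2% of all tested genes. In limma with a trend and robust variance 1 gene of the list was called higher and 12 lower. The median log2 fold change was -0.22, beside 0.00 for all tested genes. In the list 34.6% were called, beside 4.67% of all tested genes. A separate fit held only the 6952 brighter genes at or above a log2 mean of 6.10, of which 7.72% were called. In that fit 11 genes of the list were called lower and none higher. The zonal lists were chosen with earlier results of these data known, so these shares are descriptive. With 1 array left out the count that fell was 5 to 7, with 5 in the absence of null replicate 1 or of null replicate 2. Gstm3, a glutathione transferase, read 7.35, 7.17 and 7.36 in null liver, against 8.55, 8.49 and 8.64 in wild-type liver, a 2.40-fold fall (limma adjusted p = 0.000145). The suffix of this probe set marks one shared by related transcripts. Lect2, a secreted hepatocyte protein whose gene beta-catenin activates, read 9.09, 9.17 and 9.27 in null liver, against 9.99, 9.95 and 9.91 in wild-type liver. That was a 1.70-fold fall (limma adjusted p = 0.00146).

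Cyp27a1, a sterol hydroxylase, and Slc13a3, a dicarboxylate transporter, fell 1.53-fold and 1.77-fold (limma adjusted p = 0.00316 and 0.00542). With the mean of all probe sets their log2 fold changes were smaller, -0.39 for Cyp27a1 and -0.43 for Slc13a3 instead of -0.61 and -0.82, and both were still called. The Slc13a3 probe set has the suffix of a set that can also detect other transcripts. Of the 8 tested genes of the list with cytochrome P450 symbols, Cyp1a2, Cyp2c37 and Cyp27a1 fell. The log2 fold changes of the other 5 were -0.18 for Cyp2c29, -0.16 for Cyp2c50, -0.03 for Cyp2c54, 0.10 for Cyp2e1 and 0.16 for Cyp7a1. Cyp1a2 read 10.92, 10.97 and 11.30 in null liver, against 11.75, 11.73 and 11.89 in wild-type liver, and fell 1.66-fold (limma adjusted p = 0.011, which was 0.0515 without null replicate 1 and 0.0572 without null replicate 2). Cyp2e1 read 13.97, 13.95 and 13.71 in null liver and 13.87, 13.84 and 13.62 in wild-type liver. The log2 fold change was 0.10 and the groups overlapped (limma adjusted p = 0.707). The cytochromes other than Cyp27a1, and Cyb5a, Car2, Rgn, Cldn2, Ahr, Lhpp and Gstm1, were picked with their values in view.

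Genes of the opposite, periportal end moved in both directions. Of 25 listed, 21 were measured, 5 rose, 2 fell and 14 did not pass, with a median log2 fold change of 0.03. In all 33.3% were called, beside 4.67% of all tested genes. In the separate fit of the brighter genes, where 7.72% were called, 6 of the list rose and 2 fell. Etnppl, a phospho-lyase of phosphoethanolamine, read 10.62, 10.67 and 10.77 in null liver, against 9.72, 9.57 and 9.74 in wild-type liver, a 2.01-fold rise (limma adjusted p = 0.000444). Asl, a urea cycle enzyme, rose 1.68-fold (limma adjusted p = 0.00157). The other 3 that rose were Hal (1.55-fold), histidine ammonia-lyase, Aldh1b1 (1.40-fold), an aldehyde dehydrogenase, and Arg1 (1.30-fold), arginase. Among those that did not pass, Cdh1 (log2 fold change 0.66), Mfsd2a (-0.27) and Pigr (-0.19) had an unadjusted p under 0.05 in limma. Aldh1b1, Arg1, Hal, Cdh1, Mfsd2a and Pigr were picked with their values in view. The count that rose was 3 when replicate 1 or 2 of either genotype was left out, where Aldh1b1 and Arg1 did not pass. Arg1 did not pass either when a replicate 3 was left out, with replicates 1 and 2 alone, with no limit on level or among single probe sets. The count was 6 with the limit at 6.10, the mean of all probe sets, quantile normalization or a trend and robust variance. It was also 6 with the replicate block or with replicate 3 of both genotypes as a block of its own. The 2 that fell were G6pc, the glucose-6-phosphatase gene, at 1.64-fold, and Ctsc, a cathepsin, at 1.91-fold (limma adjusted p = 0.00154 and 0.0023). Ctsc was not called with the mean of its probe sets (limma adjusted p = 0.0898). It is also made by macrophages, whose markers fell as given above, and their part in its fall was not tested.

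**Figure D3:**
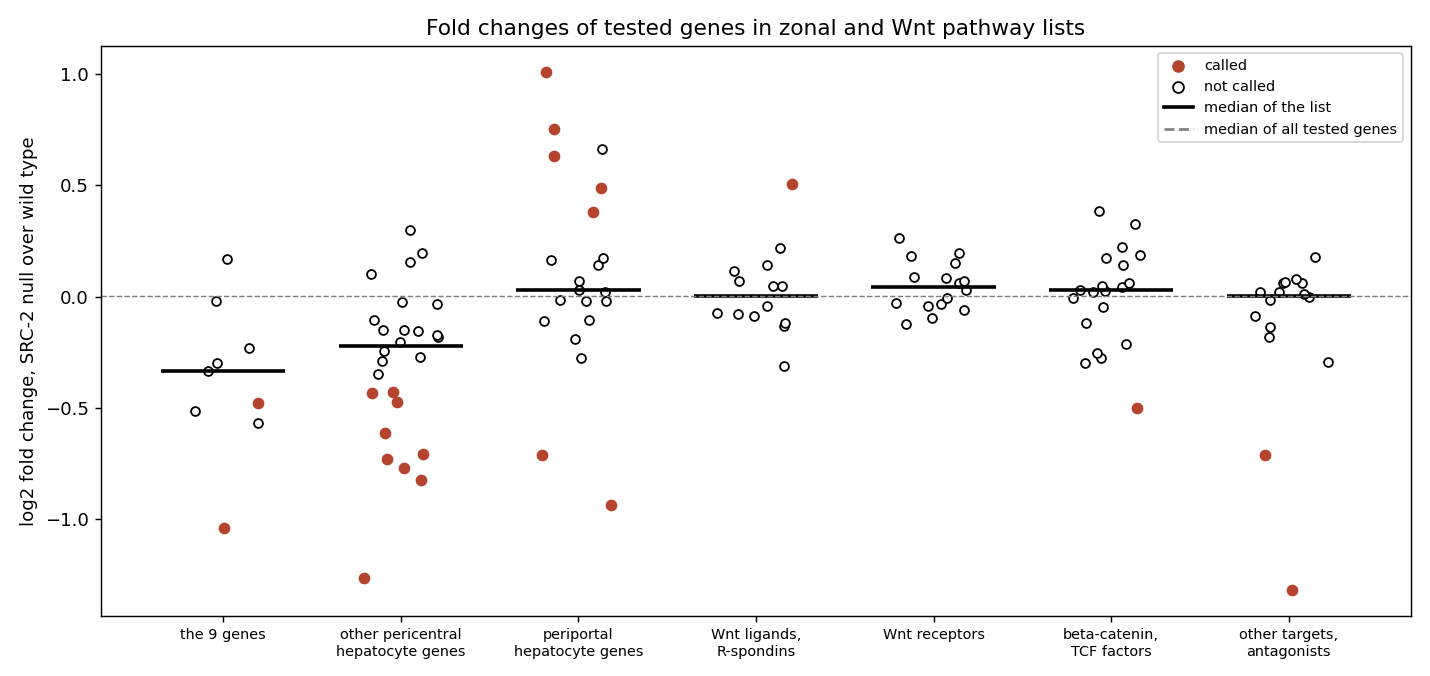
Log2 fold change of SRC-2 null over wild type for each tested gene of the 9 genes, 2 zonal lists and 4 Wnt pathway lists. Red points were called, open points were not, thick bars are list medians and the dashed line is the median of all tested genes. Called pericentral genes all lie below 0 and periportal ones on both sides. Of the 66 tested entries of the Wnt lists 4 were called, with Lgr6 shown in both the receptor list and the list of other targets.

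Over 4 lists of Wnt pathway genes, 4 of 66 tested entries were called (6.06%, beside 4.67% of all tested genes). Lgr6, not called, stood in both the receptor list and the list of other targets and was counted in each. Of 25 genes for Wnt ligands, R-spondins and their secretion, 14 were bright enough to test, 1 rose, none fell and 13 did not pass, with a median log2 fold change of 0.00. Wnt2, which sinusoidal and central vein endothelial cells secrete, read 4.81, 4.97 and 4.93 in null liver, against 5.16, 5.09 and 5.39 in wild-type liver. The groups did not overlap, but the log2 fold change of -0.31 did not pass (limma adjusted p = 0.161). Rspo2, another R-spondin, had a log2 fold change of 0.22, also without overlap, and did not pass (limma adjusted p = 0.288). Rspo3, the R-spondin of the central vein, had a log2 fold change of 0.11 (95% interval -0.06 to 0.29, limma adjusted p = 0.524). Wnt9b, the other ligand of the central vein, had one of -0.04 (limma adjusted p = 0.921), whose sign turned without wild-type replicate 1 or null replicate 2; Wnt9b was picked with its value in view. These 4 genes lay close to the limit, where folds are compressed.

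The gene that rose was Wnt5b, a ligand known mainly for signalling without beta-catenin, at 5.90, 5.91 and 5.91 in null liver, against 5.34, 5.35 and 5.53 in wild-type liver (log2 fold change 0.51, limma adjusted p = 0.014). The Wnt5b call did not hold with the mean of its probe sets (limma adjusted p = 0.0654), nor when replicate 1 or 2 of either genotype was left out (limma adjusted p 0.0545 to 0.0772). Of 17 endothelial markers 16 were tested and 1 rose (Flt1, a VEGF receptor, log2 fold change 0.44, called in 3 of 15 alternatives). Lyve1, a hyaluronan receptor of sinusoidal endothelium, had a log2 fold change of 0.56 without overlap of the groups and did not pass (limma adjusted p = 0.0663), but was called in 8 of 16 alternatives. Pecam1 and Eng had log2 fold changes of -0.35 and 0.13, neither called. The list had a median log2 fold change of -0.02 and a mean of 6.38 to 6.50 in null liver, against 6.34 to 6.48 in wild-type liver.

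Among receptors, 0 of 16 tested of 18 listed were called in limma (1 at an unadjusted p under 0.05), with a median log2 fold change of 0.04. Fzd4, a Frizzled receptor, had a log2 fold change of 0.18 (limma adjusted p = 0.331) and Ror1, a receptor tyrosine kinase for Wnt ligands, one of 0.26 (limma adjusted p = 0.206). Further Frizzled receptor genes, Fzd2 and Fzd8, had log2 fold changes of 0.15 and -0.12. Inside the cell, 20 of 25 genes for beta-catenin, its destruction complex and the TCF factors were tested, 1 fell and 19 did not pass (median 0.03). Ctnnb1, the beta-catenin gene, read 10.66, 10.66 and 10.73 in null liver and 10.62, 10.61 and 10.75 in wild-type liver. The groups overlapped, with a log2 fold change of 0.03 (95% interval -0.16 to 0.21, limma adjusted p = 0.925) whose sign turned without wild-type replicate 2. Ctnnb1 was picked with its value in view. The gene that fell was Tle3, a Groucho-type corepressor of TCF factors (log2 fold change -0.50, limma adjusted p = 0.0297). The Tle3 call did not hold among single probe sets (limma adjusted p = 0.0615), with the mean of its probe sets, which fell under the limit, or when replicate 1 or 2 of either genotype was left out (limma adjusted p 0.0996 to 0.13). Btrc, which marks beta-catenin for degradation, was 0.38 higher on the log2 scale in null liver without passing (limma adjusted p = 0.129), and was called with the replicate block (limma adjusted p = 0.0478) or without wild-type replicate 3 (limma adjusted p = 0.0299). Csnk1e, a casein kinase, and Tnks2, a tankyrase that marks axin for degradation, had log2 fold changes of -0.30 and -0.21, neither called.

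Of 23 other beta-catenin targets and secreted Wnt antagonists, 16 were tested, 2 fell and 14 did not pass, with a median of 0.00. The 3 with an unadjusted p under 0.05 in limma were all lower in null liver. Ccnd1, cyclin D1, read 6.79, 6.47 and 6.78 in null liver, against 7.28, 7.33 and 7.55 in wild-type liver, a 1.64-fold fall (limma adjusted p = 0.0129), and 2 of its 3 probe sets were called. With replicates 1 and 2 alone Ccnd1 was not called (limma adjusted p = 0.0643). Cd44, a hyaluronan receptor, read 5.23, 5.50 and 5.67 in null liver, against 6.65, 6.84 and 6.87 in wild-type liver, a 2.49-fold fall (limma adjusted p = 0.000724). Leukocytes express Cd44 strongly, and of 10 lymphocyte markers tested 5 fell, beside the 16 of 17 macrophage markers. They were Ighm, Jchain, Mzb1, Ccl5 and, picked with its value in view, Nkg7. Ighm and Jchain had the largest falls of the list (log2 fold changes -3.55 and -2.51). The 5 not called, picked with their values in view, were Cd3e (-0.05), Cd4 (-0.07), Cd8a (0.07), Cd79a (-0.62) and Cd79b (-0.46). The lymphocyte list had a mean of 5.10 to 5.28 in null liver, against 6.14 to 6.27 in wild-type liver. The part of leukocytes in the Cd44 value was not tested. Sp5, a transcription factor gene induced by Wnt, was 0.29 lower in null liver on the log2 scale (log2 fold change -0.29) without passing (limma adjusted p = 0.269). Sox9 had a log2 fold change of 0.18, not called.

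A further list held other genes that handle glutamine, glutamate, ornithine and ammonia. Of 34 listed, 25 were tested, 2 rose, 2 fell and 21 did not pass (16% called, beside 4.67% of all tested genes), with a median log2 fold change of 0.08. The count that rose was 0 with replicates 1 and 2 alone and 6 with a trend and robust variance. Aqp8, a channel that passes water and ammonia, read 5.91, 5.82 and 6.10 in null liver, against 7.35, 7.14 and 7.24 in wild-type liver. It fell 2.45-fold (limma adjusted p = 0.000278), a fall in the same range as that of Rhbg. Slc38a2, a transporter of glutamine and other neutral amino acids, fell 1.43-fold (limma adjusted p = 0.03), a call lost when each probe set was tested, with replicates 1 and 2 alone and without any array but wild-type replicate 1 or null replicate 3 (limma adjusted p 0.0623 to 0.12).

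Asns, asparagine synthetase, which uses glutamine as its nitrogen donor, read 5.85, 5.61 and 5.80 in null liver, against 5.08, 4.44 and 4.81 in wild-type liver, a 1.97-fold rise (limma adjusted p = 0.0113). Gpt, alanine aminotransferase, rose 1.38-fold (limma adjusted p = 0.0121). Both lost their calls with replicates 1 and 2 alone (limma adjusted p = 0.106 for Asns and 0.065 for Gpt), Asns also without null replicate 1, and Gpt also when either of wild-type replicates 1 and 2 or null replicate 2 was left out. Cps1, the enzyme that commits ammonia to the urea cycle, did not pass (log2 fold change 0.17, limma adjusted p = 0.328). Cps1 was picked with its value in view.

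**Figure D4:**
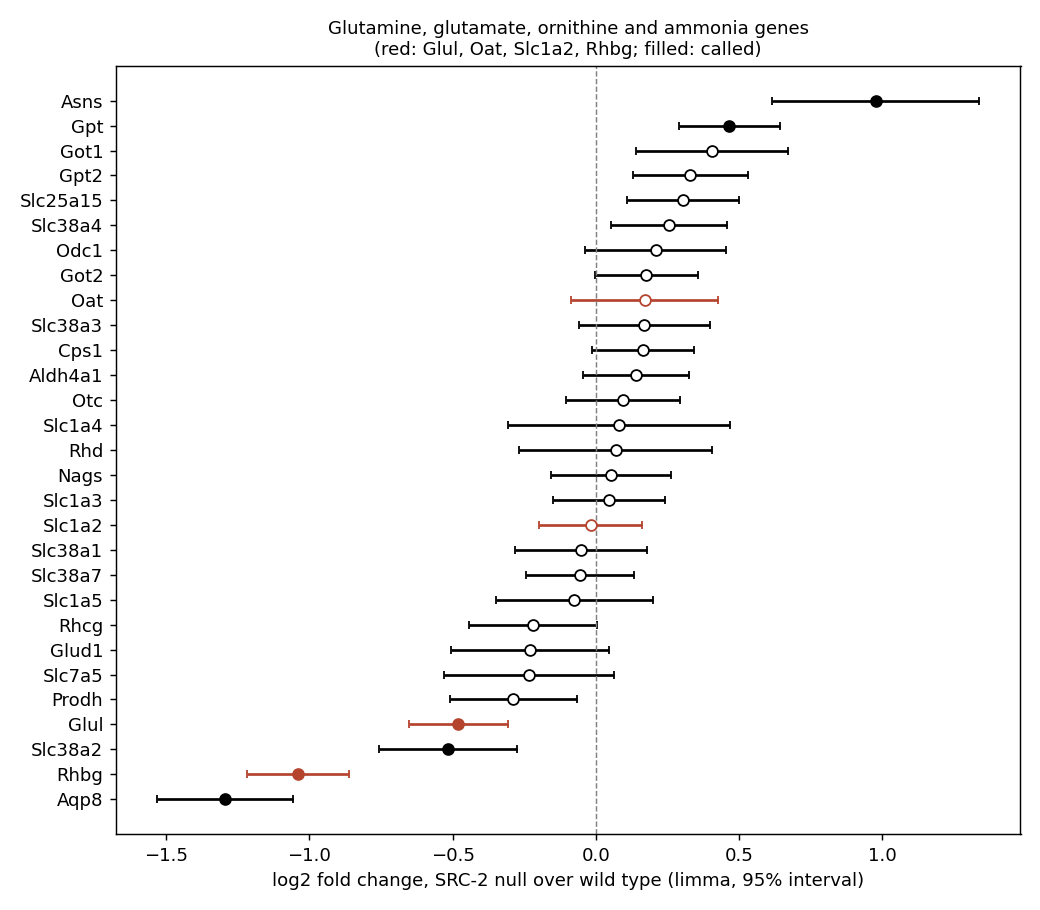
Log2 fold change of SRC-2 null over wild type with its 95% interval (limma, n = 3 each) for the tested genes of glutamine, glutamate, ornithine and ammonia handling, with Glul, Oat, Slc1a2 and Rhbg in red. Filled circles were called. Rhbg and Glul lie at the low end beside Aqp8 and Slc38a2, while Oat and Slc1a2 lie among the genes that did not pass.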

How the data were processed

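RNA of 3 SRC-2 null and 3 wild-type liver samples was measured on short oligonucleotide arrays, 1 array a sample. The authors deposited log2 values made with RMA, as recorded in the submitters' processing notes. The version, chip description file and genome build are not given here. The medians of the arrays lay between 4.17 and 4.24. Groups and replicate numbers came from the labels, which do not say that replicates are separate animals, so p-values cover only the spread among these 6 samples, possibly technical spread. Of 45101 probe sets, 34945 had exactly 1 symbol in the platform annotation, which can be old.

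Each gene was represented by its probe set with the highest mean over the 6 arrays, and genes at or above 4.21 were tested with limma 3.58.1 in R 4.3.3 (lmFit and eBayes, two-sided, genotype only, Benjamini-Hochberg). Probe sets above the limit were also tested on their own; dim ones come from a fit with no limit. The procedure was also run on simulated data with independent noise on each array. That noise lacked the likeness of the replicate 3 arrays given next, so the run does not cover it. Deviations from group means correlated at 0.18, 0.203 and 0.516 for same-numbered arrays. Replicates 1 and 2 correlated about as much across numbers (0.166 and 0.206), and replicate 3 of both genotypes stood apart. These values set replicate 3 apart but do not show that replicates 1 and 2 are paired by number. Pairs by number were used only to compare same-numbered arrays and in the replicate block, a separate fit. They did not enter the main fit, and no pairing is known from outside these data. The genes and lists were chosen with earlier results of these data known. Named genes are the 9 members, Ncoa2, up to 4 genes with the smallest p of a list, and 3 most like Glul; genes outside this rule are marked as picked with their values in view. Of 14 stellate cell markers tested 1 rose (Rgs5), with 1 of its 4 probe sets above the limit called. Rgs5 was not called with the mean of all probe sets (limma adjusted p = 0.149). Of 5 cholangiocyte markers 1 rose (Krt23) and 2 fell (Cd24a and Krt19). Krt19 was not called with replicates 1 and 2 alone, without wild-type replicate 2 or without null replicate 1. Figures used matplotlib 3.10.9 in Python 3.11.15.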

Additional observations from a re-analysis of the deposited data

How the results depend on the processing

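Of 141 refits of the 9 genes under the alternatives, 137 kept the direction and side of the threshold, 2 lost the call of Glul (as given above) and 2 turned the direction of Slc1a2, which was never called. Its log2 fold change was 0.0085 under quantile normalization and lay between -0.048 and 0.019 with 1 array left out. With the replicate block 2 of the 9 genes were called, as without it, and 832 genes in all, of which 307 were higher and 525 lower, against 556. Among the named genes the block added calls of Btrc, Lyve1 and Acta2 (adjusted p = 0.0478, 0.0144 and 0.0325) and removed none. The genes called numbered 982 with replicate 3 of both genotypes as a block of its own and 329 with replicates 1 and 2 alone, where 1 of the 9 was called. Tested as single probe sets, 3 of the 9 genes (Glul, Rhbg and Tbx3) had a called set. Leaving out 1 array in turn gave 275 to 438 genes called in all, 1 to 2 of the 9 genes, 5 to 7 lower pericentral genes and 3 to 5 higher periportal genes. Directions of uncalled genes also turned for Apob (0.043) and Hnf4a (0.0465) with the mean of all probe sets. With 1 array left out the log2 fold change ran from -0.040 to 0.0048 for Alb, from -0.18 to 0.083 for Wnt9b (0.0035 without wild-type replicate 1) and from -0.0002 to 0.071 for Ctnnb1. With the mean of all probe sets the log2 fold change of Ncoa2 was -1.20, still called. The stricter limit left out Axin2, Rnf43 and Lgr5. The number of arrays limits the precision, and low values hold mostly background.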
